A study of Mus musculus with 2 samples.

Results

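The 10 transcription factors that mark or pattern the mesenchyme around the ureter, namely Tbx18, Tbx2, Tbx3, Tshz3, Myocd, Nr2f1, Nr2f2, Foxf1, Gata2 and Sox9, were followed in nuclei of newborn mouse ureters. They were chosen by name, though with earlier results of these data known. They are 10 of the 32589 genes in the count tables, with 18669 unique molecular identifiers (UMIs, 1 per captured RNA molecule) in the DNp63cKO library and 26772 in the control library. The DNp63cKO pool held ureters of 14 mice at postnatal day 0 of the genotype Pax2-cre/+;DNp63fl/fl;R26mTmG/+, in which cre deletes the floxed ΔN isoform of p63 and switches a fluorescent reporter. The control pool held 13 mice of the same age, whose genotype is labelled wt, so that the pools may differ in driver and reporter as well. The Pax2 driver is known for the nephric duct and the epithelia that grow from it, whereas the mesenchyme described here is a neighbouring tissue. Each pool gave 1 single-nucleus library, and every difference between DNp63cKO and control below is a difference between 1 library and another, with no replicate and no test. Intervals are exact at 95% and cover counting error only.

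The ureter wall forms from mesenchyme around an epithelial tube. Sonic hedgehog, WNT and BMP4 signals instruct the inner cells to become smooth muscle, while the outer cells become fibroblasts of the adventitia. Tbx18 is needed in the mouse for this mesenchyme to surround the tube and respond to it, and Myocd, a partner of serum response factor, switches on the contractile genes. Tshz3 acts between the signals and Myocd in the mouse ureter, and Sox9 can bind myocardin there and hold it back.

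There were 5528 nuclei with 9859451 UMIs in DNp63cKO, at a median of 1298 each, and 9062 nuclei with 16063644 UMIs in control, at a median of 1124.5. After filters 5188 DNp63cKO and 8438 control nuclei were grouped into 16 clusters. Trp63, the gene of p63, stood at 139 CPM in urothelium-like nuclei of DNp63cKO and at 198 CPM in those of control, where CPM is the count of a gene per 1e6 UMIs of its class. All isoforms were counted together, and which exons were removed is not given in the sources used here, so this does not measure the deletion. The libraries shared 58 cell barcodes, 50 of them kept in both, and 15 of those 50 carried the same class in both.

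Of the 3 smooth-muscle-like clusters, cluster 1 was contractile-high, with 520 DNp63cKO and 872 control nuclei, and clusters 3 and 4 were contractile-low, with 928 and 1030 nuclei. Contractile genes summed to 38800 CPM in DNp63cKO and 37513 CPM in control contractile-high muscle, against 19815 and 21609 CPM in contractile-low muscle. The fibroblast-like class held 983 DNp63cKO and 876 control nuclei, and the pericyte-like class 76 and 65. Contractile-low muscle was made up differently in the libraries: cluster 4, led by Cpa6, Ryr3 and Dmd, gave 549 of the DNp63cKO and 481 of the control nuclei, and cluster 3, led by genes such as Neil3, Ankle1 and Pif1, gave 379 and 549. Genes of mitosis summed to 1612 CPM in DNp63cKO and 1727 CPM in control nuclei of cluster 3, against 444 and 455 CPM in cluster 4. In contractile-high cluster 1 they summed to 1053 and 972 CPM. The pericyte-like class was led by Kcnab1, Ctnna3 and Dgkb, and Ren1, Pdgfrb and Ebf1 were also among its 10 leading genes.

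Cluster 1 stood apart in more than its contractile genes. Its mitochondrial share was 2.71% of UMIs in DNp63cKO and 2.92% in control nuclei, against 0.397% and 0.516% in contractile-low muscle. Haemoglobin genes summed to 2338 CPM in DNp63cKO and 1741 CPM in control nuclei of cluster 1, against 236 and 202 CPM in contractile-low muscle, and Hbb-bt was among its leading genes. Their part in the differences between muscle classes was not tested. A list of 8 urothelial genes, which muscle and fibroblasts should lack, summed to 3511 CPM in DNp63cKO and 3258 CPM in control contractile-high muscle, to 6349 and 4378 CPM in contractile-low muscle, to 5383 and 3955 CPM in fibroblast-like nuclei and to 9694 and 3788 CPM in pericyte-like nuclei. The same genes stood at 23244 and 17938 CPM in urothelium-like nuclei, and in each mesenchymal class their sum was higher in the DNp63cKO library.

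All 10 members together made up 1969 CPM in DNp63cKO and 1982 CPM in control contractile-high muscle, 3200 and 3038 CPM in contractile-low muscle, 2224 and 2040 CPM in fibroblast-like nuclei and 2010 and 2488 CPM in pericyte-like nuclei. Urothelium-like nuclei had 1474 and 1437 CPM.

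**Figure D1:**
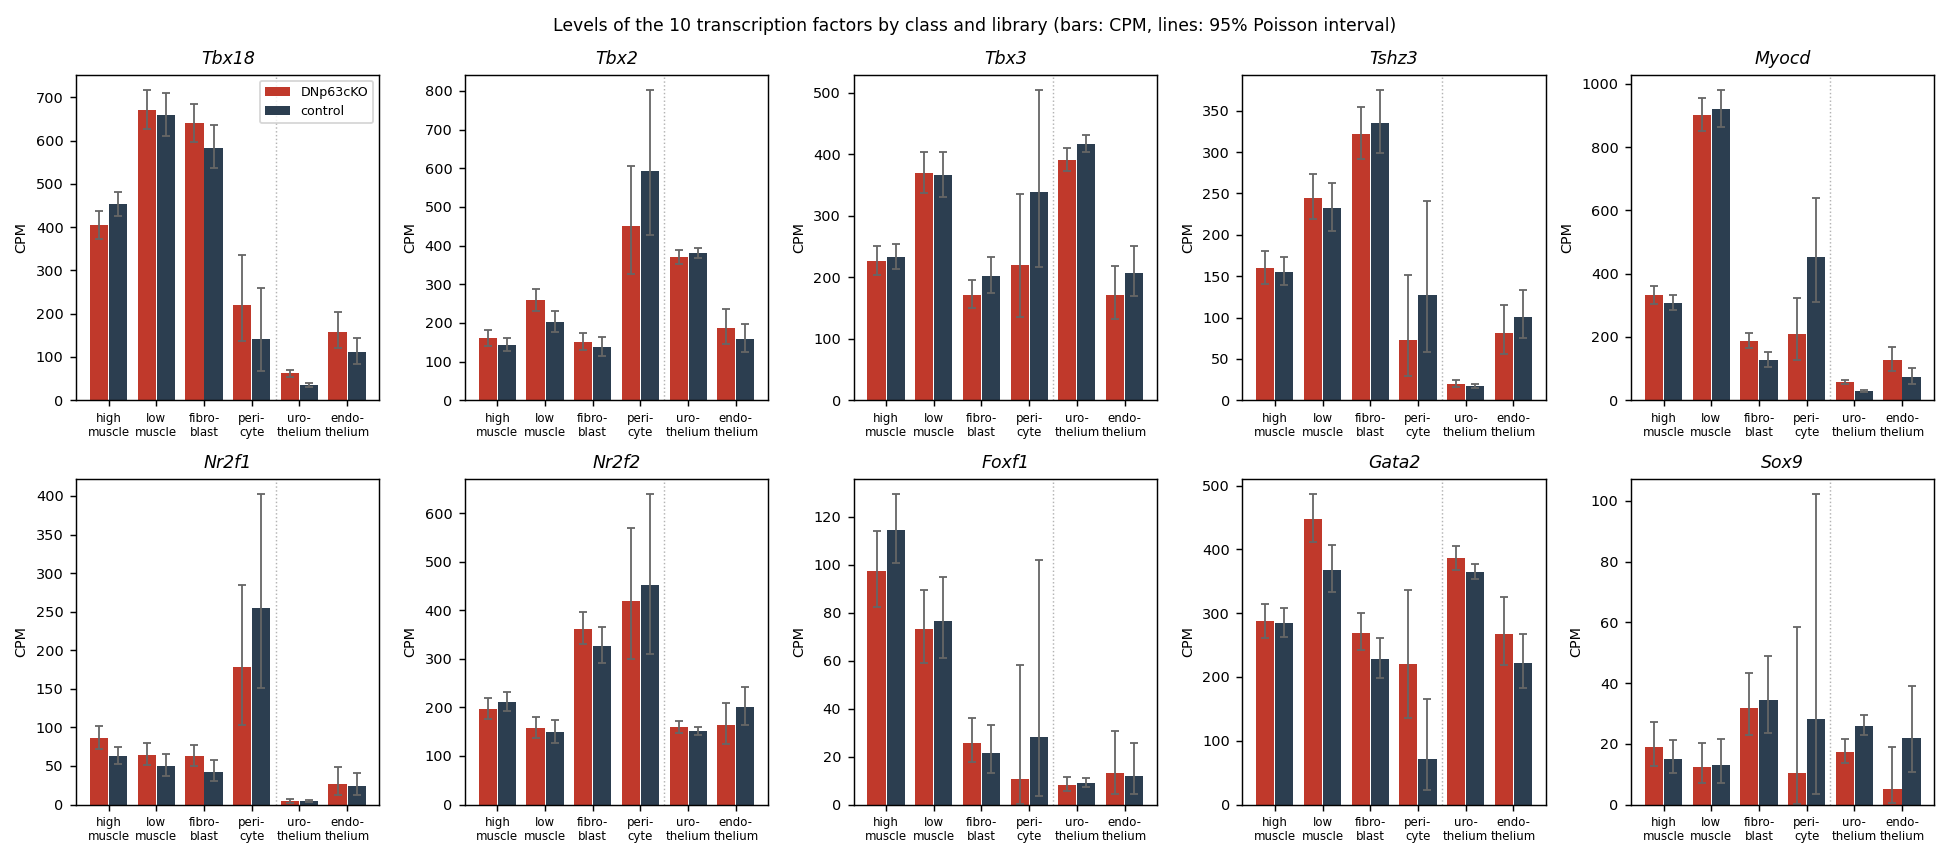
Level of each transcription factor in CPM (y axis) in 6 classes of nuclei (x axis), DNp63cKO in red and control in dark blue, with exact 95% Poisson intervals as lines and 1 library per bar. The dotted line parts the mesenchymal classes from urothelium and endothelium; Myocd stands highest in contractile-low muscle at 901 and 921 CPM, Tshz3 in fibroblast-like nuclei at 323 and 336 CPM, and Tbx2 and Tbx3 are as high in urothelium as in muscle or higher.

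Tbx18, a T-box factor, is annotated on chromosome 9 (GRCm38, 87702800 to 87731260, minus strand). It had 622 UMIs in DNp63cKO and 995 in control contractile-high muscle, which is 404 CPM (interval 373 to 437) and 453 CPM (425 to 482). Contractile-low muscle had 671 CPM (627 to 717) in DNp63cKO and 659 CPM (612 to 709) in control nuclei. Fibroblast-like nuclei had 640 CPM (597 to 686) and 584 CPM (536 to 635). Contractile-low muscle and fibroblast-like nuclei were thus the highest classes in both libraries, with intervals that overlapped each other, and contractile-high muscle stood below both without overlap. Pericyte-like nuclei were lowest, with 220 CPM from 21 UMIs in DNp63cKO and 141 CPM from 10 UMIs in control. Outside the mesenchyme, Tbx18 had 62.0 and 35.5 CPM in urothelium-like nuclei and 158 and 111 CPM in endothelium-like nuclei, so the pericyte-like level lay near that of classes that need not express the gene. After each nucleus was thinned to 700 UMIs, a Tbx18 UMI was seen in 35.4% of DNp63cKO and 31.6% of control contractile-low nuclei, in 31.3% and 29.9% of fibroblast-like nuclei, and in 4.45% and 2.42% of urothelium-like nuclei. Unthinned, the contractile-low shares were 47.6% and 40.3%, at median depths of 1093 and 859 UMIs, and the urothelium-like shares were 11.1% and 5.62%, at 1468 and 1237.5 UMIs. Counted per nucleus instead of in CPM, contractile-high muscle had more Tbx18, 120 UMIs in 100 DNp63cKO and 114 in 100 control nuclei against 92.9 and 69.3 in contractile-low muscle. The median nucleus of that class held 1626 UMIs in DNp63cKO and 1225.5 in control.

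Tshz3, a teashirt zinc finger factor that works upstream of Myocd in the mouse ureter, lies on chromosome 7 (36698118 to 36773553, plus strand). It was highest in fibroblast-like nuclei, with 323 CPM (interval 292 to 355) in DNp63cKO and 336 CPM (299 to 375) in control. Contractile-low muscle followed with 245 CPM (219 to 274) and 233 CPM (205 to 263), and contractile-high muscle with 160 CPM (140 to 181) and 155 CPM (139 to 173). These 3 classes kept the same order in both libraries with no overlap between neighbours. Pericyte-like nuclei held 7 and 9 UMIs, or 73.3 and 127 CPM, and urothelium-like nuclei 19.9 and 17.0 CPM. Thinned shares were 20.4% of DNp63cKO and 17.2% of control fibroblast-like nuclei, against 1.98% and 1.08% of urothelium-like nuclei.

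Across 13 sums of nuclei, 1 for each class and library with 50 or more nuclei, Tbx18 and Tshz3 were the most alike pair among the 10 members (Pearson r 0.933 on log2 of CPM + 5). The points share their library, depth and free RNA, so r is a description. Their promoter sequences, 250 bases before to 50 after the annotated start from RefSeq (GRCm38.p6), are shown because of this likeness; RefSeq windows were found for 5 of the 10 members. Tbx18 is at chr9:87731211-87731510 and Tshz3 at chr7:36697868-36698167, each written 5′ to 3′ on the strand of its gene. Capitals mark the Sp1 GC box GGGCGG, which reads CCGCCC on the other strand.
Tbx18: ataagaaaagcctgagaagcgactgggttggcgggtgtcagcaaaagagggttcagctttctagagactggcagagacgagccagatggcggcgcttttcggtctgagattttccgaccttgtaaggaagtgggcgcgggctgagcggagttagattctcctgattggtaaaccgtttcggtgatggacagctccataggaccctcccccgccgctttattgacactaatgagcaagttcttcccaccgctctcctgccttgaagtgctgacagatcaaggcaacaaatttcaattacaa
Tshz3: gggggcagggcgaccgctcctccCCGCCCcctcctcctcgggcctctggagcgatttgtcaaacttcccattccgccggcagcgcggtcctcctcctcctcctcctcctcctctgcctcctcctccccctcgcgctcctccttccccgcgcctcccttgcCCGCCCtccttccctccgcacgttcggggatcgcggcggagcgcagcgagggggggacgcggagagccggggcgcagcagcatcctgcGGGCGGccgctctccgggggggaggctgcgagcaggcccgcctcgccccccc
The Tshz3 window held 3 GC boxes and the Tbx18 window none, and GGGCGG was present in 35.9% of 32544 promoter windows. G and C made up 76.0% of the Tshz3 window and 51.7% of the Tbx18 window, against a median of 53.0% over all windows. Neither held the GLI motif GACCACCCA (0.246% of all windows), the T-box motif GGTGTGA (3.95%), the CArG box of serum response factor (1.64%), the GATA motif AGATAA (11.2%), the nuclear receptor motif AGGTCA (16.2%) or TATAAA (13.6%), all searched on both strands and counted separately where they overlapped.

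Myocd, the myocardin coactivator of serum response factor, lies on chromosome 11 (65176561 to 65269989, minus strand). It had 1158 UMIs in DNp63cKO and 998 in control contractile-low muscle, 901 CPM (interval 850 to 954) and 921 CPM (865 to 980). Contractile-high muscle had 332 CPM (304 to 363) and 307 CPM (285 to 332). Fibroblast-like nuclei had 187 CPM (164 to 212) and 128 CPM (106 to 154). Pericyte-like nuclei had 209 CPM from 20 UMIs and 452 CPM from 32 UMIs, with intervals of 128 to 323 and 309 to 639 CPM. The coactivator of contractile genes was therefore measured highest in the muscle class with the lower contractile RNA, in both libraries and also per nucleus, at 125 UMIs in 100 DNp63cKO and 96.9 in 100 control nuclei against 98.5 and 77.4 in contractile-high muscle. Within contractile-low muscle, by contrast, Myocd was higher in the cluster with more contractile RNA. Contractile genes summed to 13384 CPM in DNp63cKO and 16621 CPM in control nuclei of cluster 3, with Myocd at 585 and 680 CPM. In cluster 4 they summed to 23923 and 26331 CPM, with Myocd at 1103 and 1150 CPM. The inverse order between classes thus rests on cluster 1, the only contractile-high cluster. A stricter nucleus filter, which removed most nuclei of cluster 1 and gave the contractile-high label mainly to those of cluster 4, turned the order of the muscle classes round for Myocd, Tbx18 and Tshz3. Contractile-low muscle exceeded fibroblast-like nuclei by log2 2.24 in DNp63cKO and 2.80 in control. With nuclei thinned to 700 UMIs, 38.9% of DNp63cKO and 37.5% of control contractile-low nuclei had a Myocd UMI, against 11.5% and 6.09% of fibroblast-like, 13.3% and 16.0% of macrophage-like and 4.84% and 2.11% of urothelium-like nuclei. The macrophage shares, of a cell type that should lack Myocd, rest on 45 and 25 nuclei and have intervals of 5.05% to 26.8% and 4.54% to 36.1%, which span the fibroblast-like shares.

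Tbx2 and Tbx3 are closely related T-box repressors on chromosomes 11 (85832551 to 85841948) and 5 (119670669 to 119684724), both on the plus strand. Tbx2 had 450 CPM (interval 326 to 606) in DNp63cKO and 594 CPM (428 to 802) in control pericyte-like nuclei, from 43 and 42 UMIs, the highest mesenchymal level in each library. Contractile-low muscle had 259 and 201 CPM, contractile-high muscle 160 and 144 CPM and fibroblast-like nuclei 151 and 137 CPM. Tbx3 was highest in contractile-low muscle, with 369 CPM (337 to 404) in DNp63cKO and 367 CPM (331 to 404) in control nuclei, where the pericyte-like interval (217 to 505) overlapped it. It had 227 and 234 CPM in contractile-high muscle, 171 and 202 CPM in fibroblast-like nuclei and 220 and 339 CPM in pericyte-like nuclei, and in both libraries the intervals of these 3 classes overlapped from neighbour to neighbour. Both genes were also present in the epithelium: urothelium-like nuclei had 369 and 381 CPM of Tbx2 and 391 and 418 CPM of Tbx3. Endothelium-like nuclei had 187 and 158 CPM of Tbx2 and 171 and 208 CPM of Tbx3, close to the fibroblast-like and contractile-high levels, which are therefore not separated from free RNA here.

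Nr2f1 and Nr2f2, also called COUP-TFI and COUP-TFII, are orphan nuclear receptors on chromosomes 13 (78188973 to 78199757) and 7 (70351944 to 70366735), both on the minus strand. Nr2f1 had 178 CPM (interval 104 to 285) in DNp63cKO and 254 CPM (151 to 402) in control pericyte-like nuclei, from 17 and 18 UMIs. The other mesenchymal classes lay between 62.3 and 86.4 CPM in DNp63cKO and between 42.1 and 62.9 CPM in control, and their intervals overlapped from neighbour to neighbour. Urothelium-like nuclei had 4.26 and 4.27 CPM, so Nr2f1 was almost free of epithelial background. Endothelium-like nuclei had more, 26.3 CPM (12.6 to 48.3) in DNp63cKO and 23.8 CPM (12.3 to 41.5) in control. In control the intervals of fibroblast-like (29.9 to 57.5) and contractile-low nuclei (37.5 to 65.1) overlapped that of endothelium. Nr2f2 had 419 and 452 CPM in pericyte-like nuclei and 362 CPM (330 to 397) in DNp63cKO and 327 CPM (291 to 366) in control fibroblast-like nuclei, with overlapping intervals between these classes. Muscle had less, 197 and 211 CPM in contractile-high and 157 and 150 CPM in contractile-low nuclei. Urothelium-like nuclei had 159 and 152 CPM, the level of contractile-low muscle. Contractile-low muscle over fibroblast-like nuclei ran log2 -1.18 in DNp63cKO and -1.10 in control.

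Foxf1, a forkhead factor that hedgehog signals switch on in mouse mesenchyme, lies on chromosome 8 (121084386 to 121088144, plus strand). It was highest in contractile-high muscle, with 97.4 CPM (interval 82.4 to 114) in DNp63cKO and 114 CPM (101 to 129) in control nuclei, and contractile-low muscle had 73.1 and 76.6 CPM, with intervals that overlapped in DNp63cKO and not in control. Fibroblast-like nuclei had 25.7 and 21.6 CPM and urothelium-like nuclei 8.28 and 8.97 CPM. In muscle Foxf1 thus stood well above both other tissues, in each library and without overlap of intervals.

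Gata2, a zinc finger factor needed in the mouse ureteric mesenchyme for timely muscle differentiation, lies on chromosome 6 (88193891 to 88207032, plus strand). It had 448 CPM (interval 412 to 486) in DNp63cKO and 368 CPM (333 to 406) in control contractile-low muscle, 287 and 285 CPM in contractile-high muscle and 270 and 228 CPM in fibroblast-like nuclei. Urothelium-like nuclei had 386 and 365 CPM and endothelium-like nuclei 268 and 222 CPM. The contractile-high and fibroblast-like levels were close to that of endothelium, so only contractile-low muscle stood above it without overlap in both libraries.

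Sox9, an HMG-box factor, lies on chromosome 11 (112782224 to 112787760, plus strand) and had the fewest UMIs of the members in both muscle classes. Fibroblast-like nuclei had 31.9 CPM from 41 UMIs in DNp63cKO and 34.5 CPM from 32 UMIs in control. Contractile-high muscle had 18.8 and 15.0 CPM and contractile-low muscle 12.4 and 12.9 CPM. Urothelium-like nuclei had 17.3 and 26.0 CPM, and neither muscle class stood above them without overlap of intervals. Pericyte-like nuclei held 1 UMI of Sox9 in DNp63cKO and 2 in control, and the same numbers of Foxf1.

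Between the libraries, the 10 factors were close to each other in muscle and fibroblasts. Ratios are log2 of CPM + 5, DNp63cKO over control, for members with 20 or more UMIs in the 2 libraries together, and their intervals are computed without the added 5 CPM. In contractile-high muscle 0 of 10 members passed 1.5-fold either way, beside 7.67% of 12323 genes, and the median was 0.02 for the members and -0.04 for all genes. In contractile-low muscle 0 of 10 passed, beside 10.8% of 11749 genes, with medians of 0.05 and 0.00. In fibroblast-like nuclei 0 of 10 passed, beside 11% of 11668 genes, with medians of 0.14 and 0.01. Read against those shares of all genes, a count of 0 in 10 members is near the background.

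**Figure D2:**
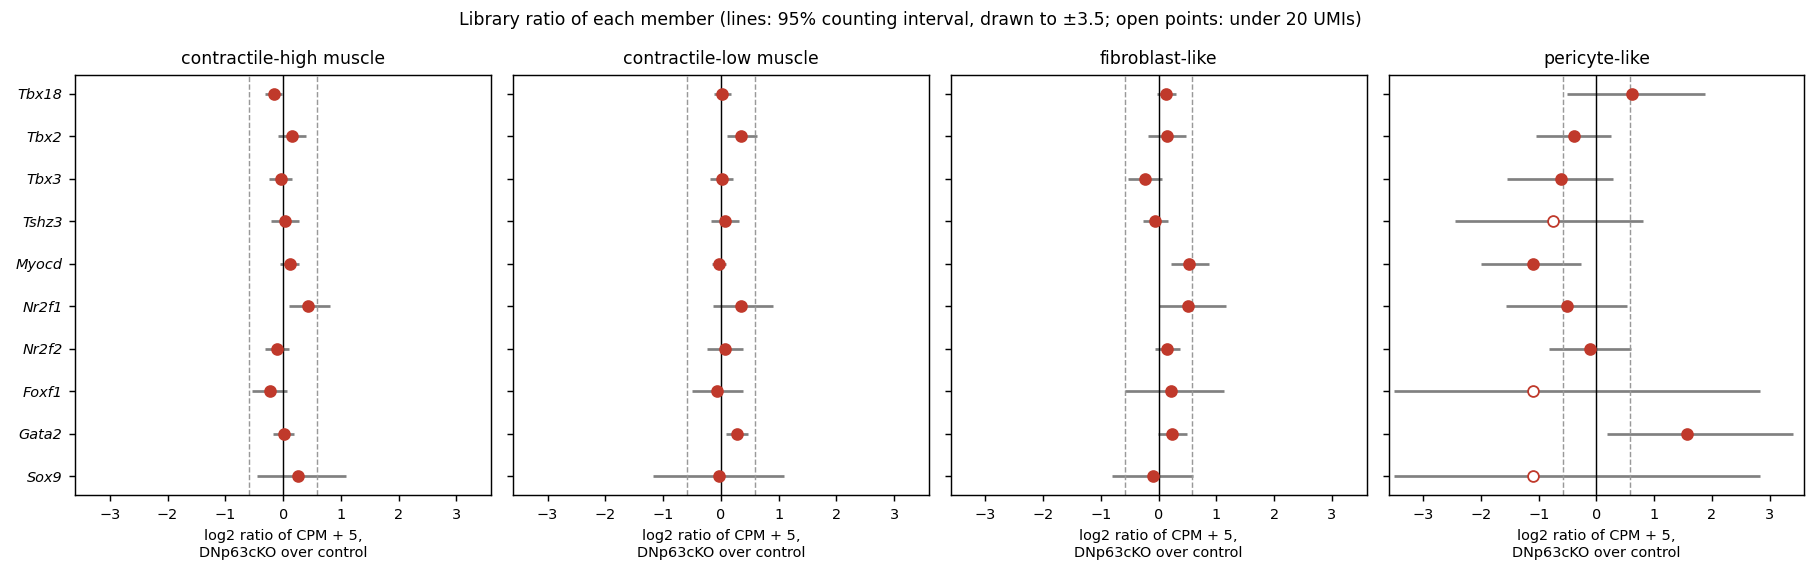
Log2 ratio of CPM + 5 of each member, DNp63cKO over control (x axis), in the 4 mesenchymal classes, with 95% conditional binomial intervals as lines; dashed lines mark 1.5-fold and open points rest on under 20 UMIs. In muscle and fibroblast-like nuclei all points lie between -0.23 and 0.52, and pericyte-like points scatter from -1.11 to 1.57 with wide intervals.

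A few intervals left out 0 without passing 1.5-fold. Tbx18 was lower in DNp63cKO contractile-high muscle by log2 -0.16 (interval -0.31 to -0.02), and Nr2f1 was higher there by 0.43 (0.10 to 0.81), with 86.4 CPM in DNp63cKO nuclei and 62.9 CPM in control nuclei. In contractile-low muscle Tbx2 was higher by 0.36 (0.11 to 0.62) and Gata2 by 0.28 (0.10 to 0.47). Both were higher in DNp63cKO in each cluster of that class, but in cluster 4 their intervals included 0. Tbx2 had 349 and 249 CPM in cluster 3 (0.48, interval 0.15 to 0.83) and 201 and 156 CPM in cluster 4 (0.36, -0.02 to 0.76). Gata2 had 431 and 340 CPM in cluster 3 (0.34, 0.05 to 0.64) and 459 and 395 CPM in cluster 4 (0.21, -0.03 to 0.46). The 8 urothelial genes were also higher in DNp63cKO contractile-low nuclei, at 6349 CPM against 4378 CPM in control, and urothelium-like nuclei hold Tbx2 and Gata2 as well. Tbx3, which is as high in urothelium-like nuclei, ran 0.01 in the same contractile-low nuclei. With an estimate of free RNA subtracted the ratios were 0.70 for Tbx2 and 0.47 for Gata2, larger than before. That estimate took 46.6% of UMIs in DNp63cKO and 33.4% in control contractile-low muscle. After the subtraction 31.0% of all genes passed 1.5-fold in this class, against 10.8% before it. The part of free RNA in the ratios of Tbx2 and Gata2 was not tested.

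Over muscle and fibroblast-like nuclei the largest ratio of any member was that of Myocd in fibroblast-like nuclei, 0.52 (interval 0.22 to 0.87). Myocd was higher in DNp63cKO also in endothelium-like nuclei, by 0.74 (0.14 to 1.44), and in urothelium-like nuclei, by 0.85 (0.70 to 1.21), where it had 56.8 CPM in DNp63cKO and 29.3 CPM in control. Tbx18 ran 0.73 (0.57 to 1.04) in urothelium-like nuclei, while in contractile-low muscle, where both genes are high, the ratios were -0.03 for Myocd and 0.02 for Tbx18. That class was made up differently in the libraries. By cluster, Myocd ran -0.22 (-0.44 to 0.01) in cluster 3 and -0.06 (-0.21 to 0.09) in cluster 4. Tbx18 ran 0.09 (-0.17 to 0.34) and -0.10 (-0.28 to 0.08). Other classes that should lack these factors did not run one way. Myocd ran -0.80 in macrophage-like, 0.81 in glia-like and -0.37 in neuron-like nuclei, and Tbx18 ran -0.38, -0.04 and -0.47, each from 17 or fewer UMIs per library and with an interval that included 0. The 12 smooth muscle markers summed to 3622 CPM in DNp63cKO and 3063 CPM in control fibroblast-like nuclei. Whether RNA from outside the nucleus has a part in the fibroblast-like ratio of Myocd was not tested.

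Pericyte-like nuclei gave 95525 UMIs in DNp63cKO and 70748 in control, and 7 members reached 20 UMIs. Of these, 4 passed 1.5-fold, beside 35.1% of 2212 genes. Tbx18 ran 0.62 (interval -0.51 to 1.89) and Gata2 1.57 (0.19 to 3.40), from 21 UMIs in DNp63cKO and 5 in control. Tbx3 ran -0.61 (-1.54 to 0.28) and Myocd -1.09 (-1.99 to -0.26). The intervals of Tbx18 and Tbx3 included 0, and with members kept among the variable genes they no longer passed 1.5-fold, which left 2 of 7. Urothelial genes in this class summed to 9694 CPM in DNp63cKO and 3788 CPM in control, which is the direction of Gata2. Tbx2 and Tbx3, also high in urothelium, ran the other way in these nuclei, at -0.40 (interval -1.05 to 0.25) for Tbx2, and the part of urothelial RNA in these ratios was not tested.

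Clusters were drawn from expression, without the members, and the muscle classes were divided by contractile genes. Larger differences between these classes than between the libraries follow from that grouping, so the contrast is a description. Contractile-high over contractile-low muscle, 6 of 10 members in DNp63cKO and 2 of 10 in control were lower by 1.5-fold or more, beside 33.9% and 29.5% of all genes, and 0 were higher by that much, beside 17.9% and 18.6%. Medians were -0.62 and -0.42 for the members and -0.28 and -0.19 for all genes. Myocd ran -1.42 (interval -1.59 to -1.29) in DNp63cKO and -1.57 (-1.73 to -1.44) in control. Tbx18 ran -0.72 and -0.54, Tbx3 -0.69 and -0.64, Tbx2 -0.67 and -0.47, Gata2 -0.63 and -0.36, and Tshz3 -0.60 and -0.57. Nr2f1 (0.39 and 0.31), Nr2f2 (0.32 and 0.49), Foxf1 (0.39 and 0.55) and Sox9 (0.45 and 0.16) ran the other way in both libraries, so the sign was the same in DNp63cKO and control for all 10. Intervals included 0 for Sox9 in both libraries (-0.33 to 1.58 and -0.72 to 1.23) and for Nr2f1 in control (-0.13 to 0.82).

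**Figure D3:**
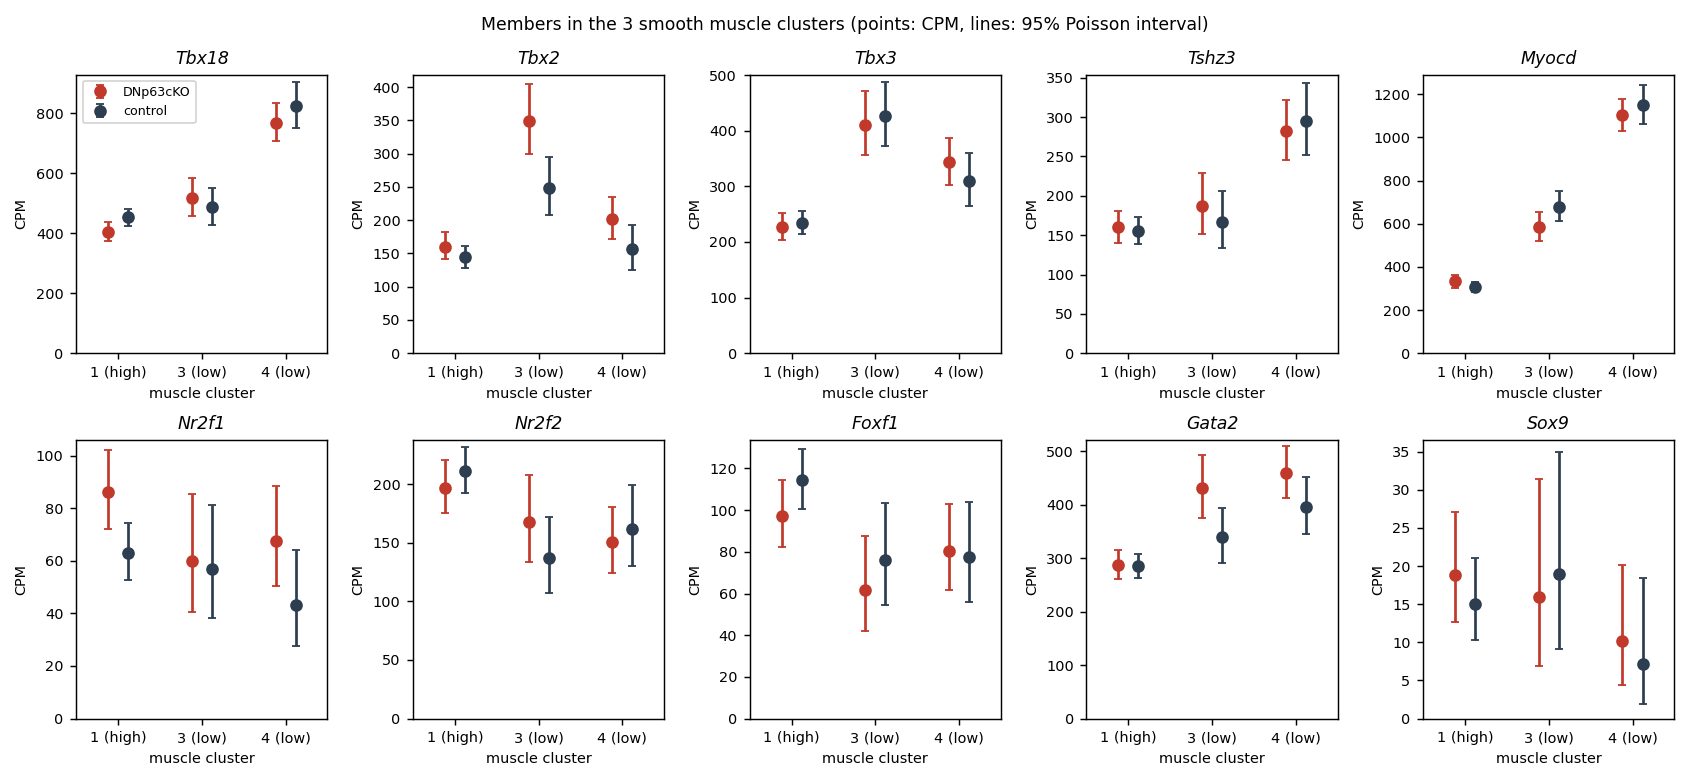
CPM (y axis) of each member in the 3 smooth muscle clusters (x axis), DNp63cKO in red and control in dark blue, with 95% Poisson intervals. Myocd, Tbx18 and Tshz3 are lowest in cluster 1, higher in cluster 3 and highest in cluster 4 in both libraries. Tbx2 and Tbx3 stand highest in cluster 3, where urothelial genes also sum highest, and Foxf1 stands highest in cluster 1.

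By cluster, Myocd had 332 and 307 CPM in cluster 1, 585 and 680 CPM in cluster 3 and 1103 and 1150 CPM in cluster 4. Tbx18 had 404 and 453 CPM, then 517 and 486 CPM, then 769 and 823 CPM. Tshz3 had 160 and 155 CPM, then 188 and 167 CPM, then 282 and 295 CPM. The Ryr3 and Dmd cluster was thus highest for all 3 genes. Tbx3 was highest in the cycling cluster 3, at 411 and 427 CPM against 343 and 309 CPM in cluster 4. Urothelial genes summed to 8778 CPM in DNp63cKO and 5182 CPM in control nuclei of cluster 3. They summed to 4797 and 3617 CPM in cluster 4, and to 3511 and 3258 CPM in cluster 1. Gata2, also high in urothelium-like nuclei, had 431 and 340 CPM in cluster 3 and 459 and 395 CPM in cluster 4. The part of urothelial RNA in the cluster 3 levels of Tbx2 and Tbx3 was not tested. Cluster 4 was clear of the other clusters for Myocd, Tbx18 and Tshz3 in both libraries, while clusters 1 and 3 overlapped for Tshz3 in both libraries and for Tbx18 in control, and clusters 3 and 4 overlapped for Tbx3 in DNp63cKO. These orders depend on which nuclei are called contractile-high. With a filter that kept nuclei with at least 500 genes and up to 1% mitochondrial UMIs, 78 of 520 DNp63cKO and 104 of 872 control nuclei of cluster 1 remained. The label contractile-high then fell on another cluster, in which 375 of 413 DNp63cKO and 249 of 287 control nuclei had been in cluster 4. Myocd over the low class became 1.40 in DNp63cKO and 1.06 in control, Tbx18 0.74 and 0.84 and Tshz3 1.25 and 0.92. Divided nucleus by nucleus at the median contractile share, Myocd ran -0.23 and -0.27, and Tbx18 -0.15 and 0.37.

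Single nuclei rarely showed many of the factors at this depth. Among nuclei thinned to 700 UMIs, 22.6% of DNp63cKO and 18.4% of control contractile-low nuclei had UMIs of 3 or more members, against 10.6% and 12.1% of contractile-high, 15.2% and 7.65% of fibroblast-like and 17.6% and 17.1% of pericyte-like nuclei. Tbx18 and Myocd were seen together in 118 DNp63cKO contractile-low nuclei where the product of their shares gives 101, and in 90 control nuclei where it gives 81.0. Tbx18 and Tshz3 were seen together in 39 and 23 contractile-low nuclei, where the products give 37.1 and 31.0.

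The genes whose levels ran most like each member over the same 13 sums were named as descriptions only. Myocd was most like Nexn (r 0.976), an actin-binding protein of muscle, and Dmd (0.964), dystrophin. Foxf1 was most like Crispld2 (0.956) and Actg2 (0.950), the enteric smooth muscle actin. Tbx18 was most like Sgcd (0.966), a sarcoglycan, Tshz3 like the fibrillar collagen Col5a2 (0.955) and Nr2f2 like Fap (0.963), a protease of fibroblasts. Nr2f1 was most like Ednra (0.955), an endothelin receptor of mural cells. Tbx2, Tbx3 and Gata2, the members also high in urothelium, were most like Epb41l1 (0.954), Ccdc69 (0.876) and Wdsub1 (0.955), and Sox9 reached 0.793 with Thbs1.

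Most members have an annotated RNA on the opposite strand, and whether counting used strand is not given in the sources used here, so reads of overlapping partners may not be told apart. Tbx3os1, which overlaps Tbx3, had 133 CPM in DNp63cKO and 200.3 CPM in control contractile-low muscle (log2 -0.57, interval -0.89 to -0.30) and 67.8 and 112 CPM in fibroblast-like nuclei (-0.69, -1.16 to -0.30), while Tbx3 ran 0.01 and -0.23. B130024G19Rik, which overlaps Nr2f2, had 65.6 and 41.4 CPM in contractile-high muscle (0.60, 0.24 to 1.09), while Nr2f2 ran -0.10. A830082K12Rik, which overlaps Nr2f1, ran 0.83 (0.37 to 1.65) in contractile-high muscle, the same direction as Nr2f1. Fendrr starts 1276 bases from Foxf1 without overlapping it and had 212 CPM in DNp63cKO and 263 CPM in control contractile-low muscle, against 94.2 and 97.5 CPM in contractile-high muscle, the reverse of the Foxf1 order.

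Genes that respond to the pathways upstream of these factors gave mixed pictures. Of 10 hedgehog response genes, 8 were lower in DNp63cKO contractile-high muscle and 10 in contractile-low muscle, with 3 past 1.5-fold lower in each class, beside 4.96% and 5.4% of all genes, and medians of -0.32 and -0.36. In fibroblast-like nuclei 7 of 10 were lower, also with 3 past 1.5-fold, beside 4.92% of all genes, and the median was -0.07. Ptch1, the hedgehog receptor and target, had 184 CPM in DNp63cKO and 355 CPM in control contractile-low muscle (-0.93, interval -1.19 to -0.72). Bmp4 had 60.7 and 109 CPM there (-0.79). Foxf1, itself a hedgehog target, ran -0.22 (-0.53 to 0.07) in contractile-high and -0.06 (-0.51 to 0.38) in contractile-low muscle. Of 10 WNT response genes, 10 were higher in contractile-high muscle with a median of 0.39 and 0 past 1.5-fold higher, beside 2.71% of all genes, and 5 of 10 were higher in contractile-low muscle. The 10 BMP response genes of contractile-high muscle ran both ways. DNp63cKO had more of 6 and less of 4, and their middle ratio lay at 0.09. Past 1.5-fold there was 1 gene in each direction, beside 2.71% of all genes higher and 4.96% lower. Of 8 such genes in contractile-low muscle, DNp63cKO had less of 7 and more of 1, and the middle ratio lay at -0.26. There 0 passed 1.5-fold higher and 1 lower, beside 5.45% and 5.4% of all genes. The gene past 1.5-fold lower was Smad7 in both classes, an inhibitor of the pathway, at -0.84 in contractile-high and -1.14 in contractile-low muscle. Among 6 retinoic acid genes of fibroblast-like nuclei, Rarb, a retinoic acid receptor and target, was past 1.5-fold higher, beside 6.06% of all genes, with 196 CPM in DNp63cKO nuclei and 126 CPM in control nuclei (0.62, 0.31 to 0.97), and the median was 0.17. In contractile-high muscle 6 of 7 genes of that list were lower with a median of -0.16, and 1 was past 1.5-fold lower, Dhrs3, a retinal reductase, at -0.61 (-0.99 to -0.31). In contractile-low muscle 3 of 6 were lower and 0 passed 1.5-fold, with Dhrs3 at -0.37 (-0.70 to -0.06). Of 12 partners of serum response factor, 0 were higher and 2 lower past 1.5-fold in contractile-high muscle, beside 2.71% and 4.96% of all genes, with a median of -0.11. In contractile-low muscle 1 was higher and 0 lower, beside 5.45% and 5.4%, with a median of -0.01. Of other mesenchymal transcription factors, 0 of 29 passed 1.5-fold in contractile-high muscle, beside 7.67% of all genes, and 2 of 27, both higher, in contractile-low muscle, beside 5.45% of all genes. Ebf1 was 1 of these, with 64.6 CPM in DNp63cKO and 37.9 CPM in control (0.70, interval 0.21 to 1.35). In fibroblast-like nuclei 1 of 32 was higher and 1 lower past 1.5-fold, beside 6.06% and 4.92% of all genes. Contractile genes themselves had medians of 0.01 in contractile-high and -0.14 in contractile-low muscle, where 18 of 20 were lower in DNp63cKO, beside 50.2% of all genes, and 1 passed 1.5-fold lower, beside 5.4%. In fibroblast-like nuclei 13 of 18 were higher and 5 lower, beside 48.4% of all genes lower, with a median of 0.12. There 0 passed 1.5-fold either way, beside 11% of all genes.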

How the data were processed

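Nuclear RNA of 1 DNp63cKO and 1 control pool was sequenced by single-nucleus RNA sequencing in microwells, with 10000 nuclei aimed for, per the labels' protocols. The authors deposited raw UMI counts per gene and nucleus. Per the submitters' processing notes, Seurat 4.0.5, R 4.0.5, STAR 2.7.11a, STARsolo and the build mm10 were used; their roles are not stated. The annotation, barcode filter, intron counting and strand setting were not given in the sources used here. Of 32589 gene IDs, 32445 were found in GENCODE M21 (GRCm38), which gave coordinates.

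The filter kept nuclei with at least 300 genes and up to 5% mitochondrial UMIs (5491 DNp63cKO, 8889 control). Scrublet's automatic threshold marked 0 nuclei and so had not worked, and the top 5% by score were removed (303 and 451). Leiden clustering used resolution 1.0, 2000 variable genes without the members (3 had been among them), 30 components and 15 neighbours (scanpy 1.11.5). Clusters were named from marker lists, each needing a score over 0.1 and 3 markers that reach 50 CPM. The score was changed after the data were seen to weight each cluster equally, because scores against all other nuclei left urothelial clusters unnamed or misnamed. The fibroblast-like cluster and both contractile-low clusters had none of their markers among their 10 leading genes, so their names rest on the score.

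UMIs were summed per class and library into CPM, so deeper nuclei weigh more. Ratios are log2 of CPM + 5. No p-value or standard error is given, as each group has 1 library. Intervals are Poisson for CPM, conditional binomial for ratios and Clopper-Pearson for shares. The ratio code was tested on simulated data. Named besides the members were opposite-strand partners that overlap or start within 5 kb, the 3 most alike genes, and up to 4 genes per pathway list with the largest ratio. Members and lists were chosen with earlier results of these data known. Results under 11 other settings, and under 1 added after the data were seen (contractile-low muscle without cluster 3), are in the closing section.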

Additional observations from a re-analysis of the deposited data

How the results depend on the processing

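The median ratio of the members between DNp63cKO and control stayed within a wide spread in all 4 mesenchymal classes under each alternative that gave a value. The median of the contrast between muscle classes did not. That spread ran from the median of the members' lower interval ends to the median of their upper ends. It is about as wide as the interval of a single gene, so staying within it is a loose criterion for a median over members. The median of contractile-high over contractile-low muscle was -0.33 in DNp63cKO and -0.12 in control with no doublets removed, 0.36 and 0.018 under the stricter filter, -0.32 and -0.81 in nuclei with a Y-linked but no Xist UMI, and -0.11 and -0.050 with muscle divided by nucleus; with free RNA subtracted it was -0.99 in DNp63cKO. Under the stricter filter the label contractile-high fell mainly on nuclei of cluster 4, and few of cluster 1 remained; for the other settings the cause was not tested. Under that filter Tbx18 ran 0.74 and Tshz3 1.25 in DNp63cKO, and Myocd 1.40 in DNp63cKO and 1.06 in control. In pericyte-like nuclei Tshz3 ran 1.02 between libraries under that filter, and with free RNA subtracted Tbx18 ran -1.86 and Gata2 0. Of 830 values for single members, 668 stayed within their main counting interval, 155 moved out of it and 7 were counted as turned round. The pericyte-like Gata2 ratio of 0 is 1 of the 7, but it shows no change of direction. The subtraction left 0 CPM of Gata2 in that class in both libraries. Some of the 668 could not change. The 40 library ratios with genes of 5 or more UMIs equal the main ones, as do fibroblast-like and pericyte-like ratios with muscle divided by nucleus. Turning round was counted only for ratios past 1.5-fold in the main setting, so smaller ratios that changed sign are not among the 7. In muscle and fibroblast-like nuclei, members with 20 or more UMIs past 1.5-fold under some alternative, outside the small Y-linked sets, were Nr2f1 at 1.06 in contractile-high muscle and Sox9 at -0.69 in contractile-low muscle under the stricter filter, Nr2f1 at 0.85 in fibroblast-like nuclei as a mean over nuclei, Tbx2 at 0.70 in contractile-low muscle and Tbx3 at -0.72 in fibroblast-like nuclei with free RNA subtracted, and Nr2f1 at 0.59 in contractile-low muscle without cluster 3. The shares of all genes past 1.5-fold in those classes and settings, in the same order, were 18.1%, 16.3%, 13.5%, 31.0%, 26.7% and 14.9%. In pericyte-like nuclei 4 of 7 members passed with 1 CPM added in place of 5, under median-of-ratios scaling, as a mean over nuclei (Nr2f1 in place of Tbx3, at -0.68) and with free RNA subtracted (Nr2f2 in place of Gata2, at 0.77). The shares of all genes there were 35.2%, 34.7%, 39.3% and 68.7% in that order. In the same class 3 passed under the stricter filter, beside 33.6% of all genes. At Leiden resolution 0.5 and with members kept among the variable genes 2 passed, each beside 32.8%. With genes of 5 or more UMIs 5 of 8 passed (Tshz3 added, at -0.76), beside 50.3%. With doublets kept no separate pericyte-like class formed. No paired analysis was possible because each group has 1 library, and for the same reason no replicate could be left out. The free RNA estimate, from urothelial genes, took 25.8% to 71.1% of UMIs in DNp63cKO and 24.9% to 33.4% in control classes.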
